A study of Mus musculus with 4 samples.

Results

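Genes for antigen presentation on major histocompatibility complex (MHC) class II molecules were followed here: H2-Ab1, H2-Aa and H2-Eb1, which encode the antigen-binding chains, Cd74, Ciita, H2-DMa, H2-DMb1, H2-DMb2, H2-Oa and H2-Ob. These 10 members were chosen by what their products do, and each has 1 row, found by its symbol, among the 32285 rows of the feature table.

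The counts came from CD45+ cells sorted from mouse liver and read with 10x 5' single-cell RNA sequencing, with 4 libraries, 1 for each group, all from female C57BL/6 mice. The young WT library came from untreated wild-type mice aged 8 weeks. The other 3 groups received diethylnitrosamine (DEN), 25 mg/kg intraperitoneally, at day 14 of life and were weaned at day 21 onto a choline-deficient high-fat diet (CDHFD) with 60% fat, and their livers were taken at 36 weeks of age per the sample labels, while other parts of the study give other ages. These were DEN-CDHFD WT, DEN-CDHFD miR-146a-/- and DEN-CDHFD DKO, the last lacking both miR-146a and Ccl5 (miR-146a-/- Ccl5-/-). The number of mice pooled into a library was not stated. Values given as a run of 4 are always in the order young WT, DEN-CDHFD WT, miR-146a-/- and DKO.

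The libraries held 10985, 9120, 8393 and 10623 cells with median depths of 6626, 8260, 7788 and 7259 UMIs. After limits on features and mitochondrial share, 10283, 8329, 7824 and 9850 cells were kept, and the members made up 1.26, 1.56, 1.27 and 1.55% of their UMIs. Ccl5 measured 6174, 12544, 12496 and 65.4 CPM across the kept cells and was lowest in DKO, the only label checked here with the counts. The miR-146a gene has no row in the feature table, so the miR-146a-/- label was not checked. Between 109 and 150 cell barcodes were shared by any 2 libraries, and these cells were not removed. Cells were put into classes with lineage genes that include no member, and 14 classes were formed, among them conventional dendritic cells of types 1 and 2 (cDC1 and cDC2), mature dendritic cells (mature DC), plasmacytoid dendritic cells (pDC), macrophages with C1q RNA, and classical and patrolling monocytes. B cells numbered 1187, 672, 447 and 665, pDC 135, 75, 123 and 125, cDC1 178, 95, 92 and 117, cDC2 57, 78, 91 and 173 and C1q macrophages 29, 114, 90 and 251. Classical monocytes numbered 31, 125, 210 and 289 and patrolling monocytes 79, 123, 655 and 1325, the latter most frequent in miR-146a-/- and DKO. Cells with markers of more than 1 lineage were called mixed (15.1, 21.0, 14.9 and 15.4% of kept cells), and cells meeting no gate were unassigned (30.8, 18.8, 13 and 13.2%). The gate thresholds were set after the data had been seen. No doublet caller was run. Only the upper limit on features and the limits on UMIs of other lineages acted on doublets. Those limits did not cover the cDC genes Flt3 and Zbtb46, so doublets of monocytes with cDC were not limited by them.

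Class II molecules are αβ heterodimers that show peptides from the endocytic route to CD4 T cells. The chains are built with the invariant chain, which is cut down to a fragment that H2-DM exchanges for peptide, and H2-O restrains H2-DM in some cell types. In liver, dendritic cells, B cells and macrophages carry class II, and monocytes can gain it as they mature in tissue.

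Promoter windows from 250 bases before to 50 bases after annotated start sites were available for 7 of the 10 members, in 8 windows among 32851 (mouse build GRCm38.p6, RefSeq start sites). Those of H2-Ab1, Cd74 and Ciita were absent from the promoter file. Class II promoters are known for an X box followed by a Y box, and Ciita is recruited by the proteins bound there. Windows were searched on both strands for TGATTGG, which contains the Y box core ATTGG, and for AACNNATGA as an X box core. TGATTGG was found in 7.82% of all windows, ATTGG in 37.4% and AACNNATGA in 2.85%. Counted from the start site, the first base of TGATTGG lay at -50 in H2-Aa, -61 in H2-Eb1, -63 in H2-DMb1, -92 in H2-DMb2, -45 in H2-Oa and -59 in H2-Ob. Both H2-DMa windows lacked TGATTGG. In H2-Eb1, H2-DMb1, H2-DMb2 and H2-Ob an AACNNATGA began 28, 29, 29 and 26 bases before the TGATTGG. Only 7 of all windows held this order with starts 20 to 40 bases apart, a spacing chosen after the members' spacing had been seen, and 4 of those 7 were members. H2-Aa and H2-Oa had a Y box motif without this X box motif, and H2-Aa carried TGACGTCA at -74, a motif found in 1.79% of windows. The H2-DMb1 and H2-DMb2 windows aligned with 210 identical bases of 258 aligned (81.4%), or 61.4% of the 342 columns when gaps are counted. The stretches below are 100 bases on the strand of the gene, with capitals marking TGATTGG and, where present, AACNNATGA. They lie at chr17:34287834-34287933 on the minus strand for H2-Aa and, on the plus strand, at chr17:34305746-34305845 for H2-Eb1, chr17:34153068-34153167 for H2-DMb1, chr17:34145097-34145196 for H2-DMb2, chr17:34092274-34092373 for H2-Oa and chr17:34238786-34238885 for H2-Ob, all in GRCm38.p6.
H2-Aa: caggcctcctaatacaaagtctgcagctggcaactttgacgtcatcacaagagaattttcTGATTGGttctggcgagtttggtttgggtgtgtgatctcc
H2-Eb1: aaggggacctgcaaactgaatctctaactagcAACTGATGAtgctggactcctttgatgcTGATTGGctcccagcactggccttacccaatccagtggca
H2-DMb1: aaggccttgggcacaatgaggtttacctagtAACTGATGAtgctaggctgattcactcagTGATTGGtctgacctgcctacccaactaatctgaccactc
H2-DMb2: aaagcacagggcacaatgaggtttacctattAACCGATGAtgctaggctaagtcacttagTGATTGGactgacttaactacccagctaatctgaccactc
H2-Oa: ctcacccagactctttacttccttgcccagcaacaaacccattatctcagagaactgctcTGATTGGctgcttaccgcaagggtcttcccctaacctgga
H2-Ob: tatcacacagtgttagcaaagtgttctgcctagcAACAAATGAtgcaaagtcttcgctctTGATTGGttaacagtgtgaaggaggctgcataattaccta
These matches describe sequence only, and binding was not measured in these data.

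Class II RNA was concentrated in few classes. B cells held 32.5, 18.7, 16.3 and 15.4% of the members' UMIs, although they were 11.5, 8.07, 5.71 and 6.75% of kept cells. The B cell part was largest in young WT and smaller in the 3 DEN-CDHFD libraries. cDC1 held 22.6, 9.99, 14.2 and 11.9% and cDC2 6.38, 7.60, 12.3 and 16.6%, with the largest cDC2 part in DKO. Mixed cells held 24.0, 33.7, 21.3 and 17.7% and unassigned cells 4.67, 11.5, 12.9 and 12.7%, so a sizeable part of the members' RNA lies outside the named classes. Whole-library levels mix these classes, so the member results are given within classes, as UMIs scaled to all UMIs of the class (CPM). Intervals are exact 95% intervals for counting error and carry no variation between mice. Those of CPM, UMI ratios and log2 ratios also take UMIs as independent and carry no variation between cells. They are thus too narrow for that variation where few cells hold most UMIs of a class. Intervals called apart or overlapping speak of counting error only.

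H2-Ab1 (ENSMUSG00000073421) encodes the β chain of the I-A molecule, where it pairs with the product of H2-Aa. In cDC2 its level was 8372, 9075, 8543 and 8686 CPM, and in cDC1 7693, 7898, 8136 and 7728 CPM. Class orders here and for the other members cover the classes with at least 50 cells in a library, so mature DC enter only in DEN-CDHFD WT. In that order cDC2 came first and cDC1 next in every library, with intervals apart. B cells had 2853, 3226, 3287 and 2972 CPM, lowest in young WT and highest in miR-146a-/-. pDC had 1252, 1306, 1974 and 1827 CPM, with miR-146a-/- and DKO above the 2 WT libraries. C1q macrophages measured 5862, 5991, 6587 and 4190.4 CPM and were lowest in DKO. H2-Ab1 was lower in monocytes: 1491, 1551, 818 and 831 CPM in classical monocytes and 1771, 2415, 735 and 889.7 CPM in patrolling monocytes. In value both monocyte classes were high in young WT and DEN-CDHFD WT and low in miR-146a-/- and DKO, but young WT gave only 31 classical monocytes, and 8 of its 79 patrolling monocytes held 81.7% of their chain UMIs. At the bottom of the order stood CD8 T cells (34.2, 105, 31.5 and 47.7 CPM) and NK and ILC1 cells (61.4, 65.5, 29.2 and 66.8 CPM). Neighbouring classes had H2-Ab1 intervals that overlapped only in miR-146a-/-, between regulatory and CD4 T cells and between CD8 T and NK and ILC1 cells.

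H2-Aa (ENSMUSG00000036594), the α chain of I-A, also had cDC2 first and cDC1 next among the classes with at least 50 cells. The 39 mature DC of DKO, outside that order, measured 13968 CPM, above cDC1 of that library. It measured 13372, 13184, 12873 and 13973 CPM in cDC2, 10769.8, 11326, 10811 and 11284 CPM in cDC1 and 6458, 6614, 6272 and 6553 CPM in B cells. These 3 classes differed little between libraries. In classical monocytes H2-Aa was 2612, 2360.4, 1258 and 1372 CPM and in patrolling monocytes 3345, 3761, 1086 and 1466 CPM, again high in the 2 WT libraries and low in the 2 knockout libraries. The limits of young WT given for H2-Ab1 hold for these values too. C1q macrophages held 9000.2, 8858, 9025 and 6482 CPM, with DKO lowest. Overlapping H2-Aa neighbours were cDC1 and mature DC in DEN-CDHFD WT, B cells and C1q macrophages in DKO, and regulatory and CD4 T cells in miR-146a-/-.

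The β chain of the I-E molecule is encoded by H2-Eb1 (ENSMUSG00000060586), and its α partner H2-Ea has no row in the table. Only H2-Eb1 RNA is followed here, and whether these mice form an I-E molecule was not measured. H2-Eb1 was at 10836, 10845, 10950.4 and 11313 CPM in cDC2 and 8205, 8810, 8651 and 8761 CPM in cDC1. cDC2 came first in every library, and cDC1 came next except in DEN-CDHFD WT, where mature DC stood between them. Mature DC reached 50 cells in that library alone (12, 55, 29 and 39 cells), and their H2-Eb1 level was 7246, 9199.8, 9265 and 11104 CPM. B cells measured 4416, 4722, 4711 and 4533 CPM and pDC 1251, 1139, 1751 and 1772 CPM, with the pDC of miR-146a-/- and DKO above those of both WT libraries. Patrolling monocytes had 2409, 2625, 799 and 1013 CPM of H2-Eb1, classical monocytes 1572, 1292, 747 and 710.3 CPM, and in both the 2 WT libraries were the higher ones. For young WT the limits given for H2-Ab1 apply again.

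Cd74 (ENSMUSG00000024610) encodes the invariant chain, which holds the chains together and steers them to endosomes. Its levels were 38985, 35348, 35999 and 38725 CPM in cDC2, 32797, 29823, 31349.8 and 31096 CPM in cDC1 and 26818, 25839, 26236 and 27109.9 CPM in B cells. Libraries differed little in these classes. cDC2 and cDC1 led among the classes with at least 50 cells, whereas the fewer mature DC measured 26662, 28238, 32657 and 38793 CPM. Mature DC were about level with cDC2 in DKO (38793 against 38725 CPM) and above cDC1 in miR-146a-/-. pDC measured 10582, 10423, 13216 and 13889 CPM, highest in DKO. Patrolling monocytes measured 9422, 10888, 3647 and 4920.3 CPM and classical monocytes 10265, 7529, 4981 and 5757 CPM, with the lowest value in miR-146a-/- for both. Overlapping neighbours were B cells with C1q macrophages and neutrophils with CD4 T cells in miR-146a-/-, and CD8 T with NK and ILC1 cells in DEN-CDHFD WT.

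**Figure D1:**
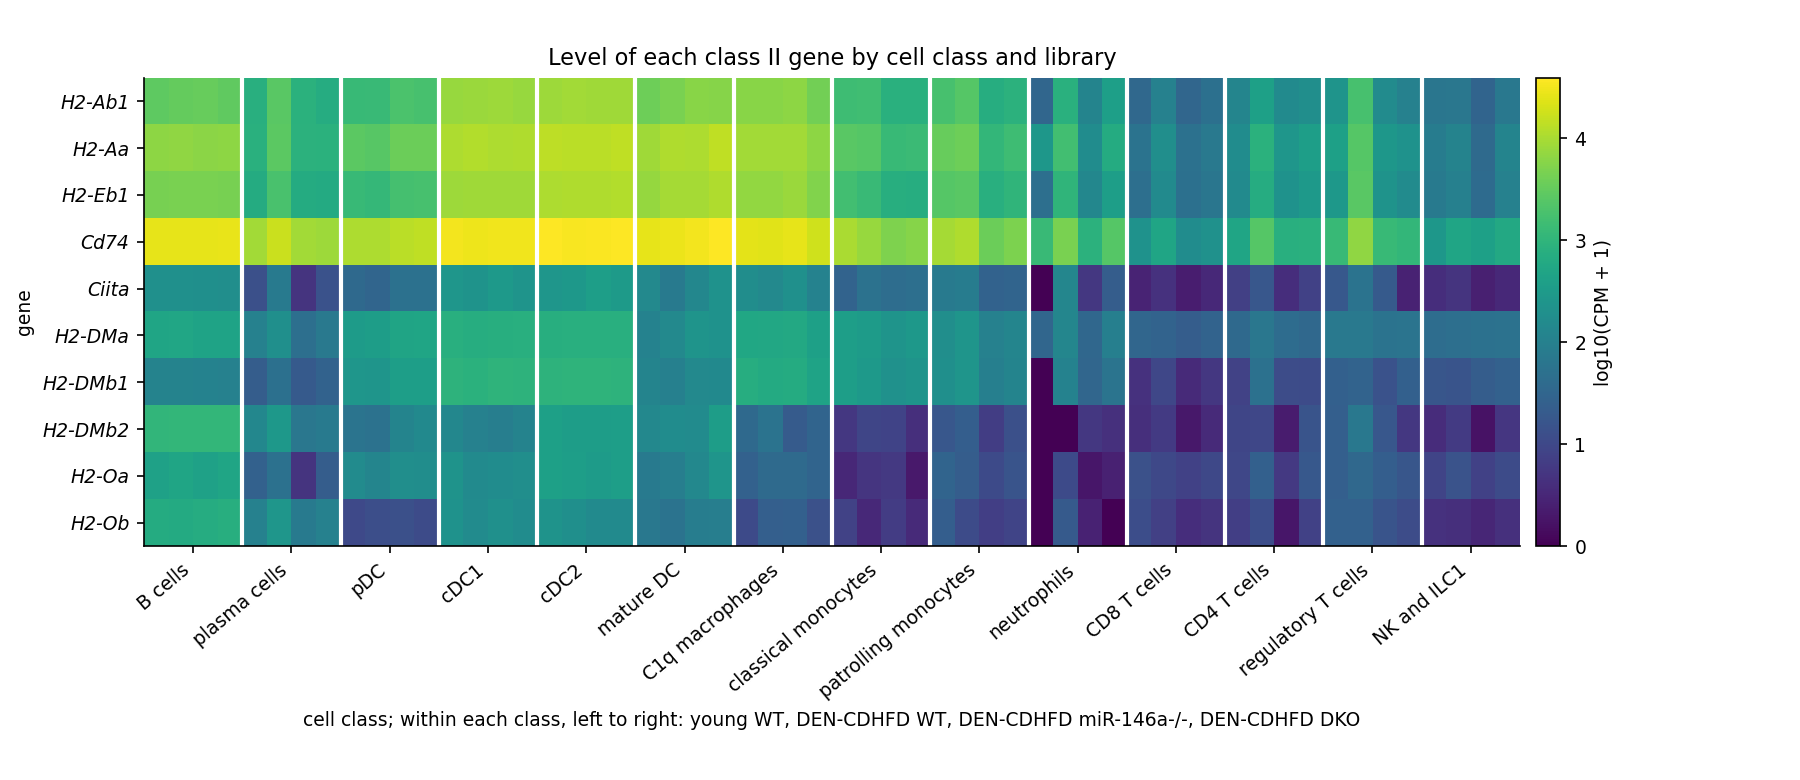
Level of each member (rows, colour as log10 of CPM + 1) in the 14 classes, with the 4 libraries side by side in each class. H2-DMb2 is brightest in B cells (1061 to 1117 CPM), whereas H2-DMb1 is brightest in cDC1 and cDC2 (862 to 955 CPM in cDC1).

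Ciita (ENSMUSG00000022504) encodes the transactivator that switches on the class II genes from their X and Y boxes. It measured 256, 276, 368 and 322 CPM in cDC2, 258, 229, 289 and 240.1 CPM in cDC1 and 204, 198, 194 and 182 CPM in B cells. In cDC2 the miR-146a-/- library was highest and young WT lowest. cDC1 and cDC2 intervals overlapped in young WT and DEN-CDHFD WT, whereas cDC2 lay above cDC1 in miR-146a-/- and DKO. pDC had 35.4, 30.1, 49.9 and 49.8 CPM, far below B cells although both carry class II. Ciita in patrolling monocytes was 74.2, 82.2, 26.6 and 29.4 CPM, high in the WT libraries and low in both knockout libraries, as with the chains. The young WT value rests on the same 79 cells as for H2-Ab1. CD8 T cells had 1.91, 3.48, 1.37 and 2.33 CPM. After thinning every cell to 2000 UMIs, Ciita was seen in 31.2, 33.6, 32.0 and 30.1% of B cells and 0.472, 0.374, 0.295 and 0.228% of CD8 T cells. Without thinning the shares were 63.9, 69.5, 70.0 and 66.9% of B cells and 1.48, 1.68, 1.09 and 0.816% of CD8 T cells, at median depths of 5661, 6834, 7067 and 6493 and 8138, 7639, 7051 and 6374 UMIs. Thinning left out 6, 5, 0 and 1 B cells and 7, 11, 12 and 10 CD8 T cells that were shallower.

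H2-DMa (ENSMUSG00000037649) encodes the α chain of H2-DM, the editor that swaps the invariant chain fragment for peptide. It measured 799, 714, 757 and 775 CPM in cDC1 and 749, 788, 772 and 794 CPM in cDC2, and these classes overlapped in every library. B cells had 494, 519, 464 and 465 CPM and pDC 334, 365, 483 and 489 CPM, the pDC being lower in the WT libraries than in the knockout libraries. Mature DC had 108, 145, 232 and 217 CPM, well below cDC1 and cDC2 even though their chain levels were of the same order. H2-DMa per H2-Ab1 UMI was 0.0287, 0.0317, 0.0397 and 0.0387 in mature DC and 0.104, 0.0904, 0.0930 and 0.10 in cDC1. Mature DC thus combined high chain RNA with little editor RNA, though only DEN-CDHFD WT gave at least 50 such cells.

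H2-DMb1 (ENSMUSG00000079547) and H2-DMb2 (ENSMUSG00000037548) encode alternative β chains of H2-DM, and the classes divided sharply between them. H2-DMb1 measured 945, 862, 955 and 942 CPM in cDC1, 937, 965, 949 and 933 CPM in cDC2 and 112, 113, 109 and 101 CPM in B cells. It was higher in cDC1 and cDC2 than in B cells in every library, and cDC1 and cDC2 overlapped except in DEN-CDHFD WT, where cDC2 was above. H2-DMb2 had the reverse order, with 1061, 1114, 1117 and 1086 CPM in B cells, 413, 358, 352 and 379 CPM in cDC2 and 133, 104, 90.1 and 114 CPM in cDC1. B cells came first and cDC2 next for H2-DMb2 in every library without overlap, and B cells held 70.0, 62.0, 57.0 and 55.1% of all H2-DMb2 UMIs. The B cell part of H2-DMb1 UMIs was 8.76, 4.6, 3.46 and 3.02%.

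In B cells the UMI ratio of H2-DMb2 to H2-DMb1 was 9.44 (8.81 to 10.1), 9.89 (9.11 to 10.7), 10.2 (9.25 to 11.4) and 10.7 (9.80 to 11.7). The ratio was 0.440, 0.371, 0.371 and 0.406 in cDC2 and 0.141, 0.12, 0.0944 and 0.121 in cDC1, so B cells lay on the other side of 1 from cDC1 and cDC2 in every library. Across the alternative choices of cells the B cell ratio ran from 8.88 to 11, the cDC1 ratio from 0.0905 to 0.175 and the cDC2 ratio from 0.269 to 0.479. pDC were on the side of cDC1 and cDC2 with 0.229 (0.181 to 0.288), 0.214 (0.154 to 0.292), 0.311 (0.264 to 0.365) and 0.403 (0.347 to 0.467). The pDC values were higher in miR-146a-/- and DKO than in the WT libraries, but the miR-146a-/- interval overlapped those of both WT libraries. Mature DC stood at 1.17 (0.652 to 2.10), 1.73 (1.33 to 2.25), 1.14 (0.845 to 1.53) and 2.34 (1.85 to 2.98), with intervals that included 1 in young WT and miR-146a-/-. The 12 mature DC of young WT also carried 2244 CPM of the C1q list and 1458 CPM of the Kupffer cell list. C1q macrophages (0.0500, 0.0837, 0.0296 and 0.0650) and classical monocytes (0.0126, 0.0270, 0.0341 and 0.0133) carried almost only H2-DMb1. These are UMI ratios and are not scaled for how well 5' ends of each transcript are captured.

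Between other members the ratio also depended on class. UMIs of H2-Aa per UMI of H2-Ab1 were 2.26, 2.05, 1.91 and 2.20 in B cells, 2.19, 1.95, 1.86 and 2.03 in pDC and 1.40, 1.43, 1.33 and 1.46 in cDC1. B cells lay above cDC1 in every library, with miR-146a-/- lowest in both. For Cd74 the ratio to H2-Ab1 was 9.40, 8.01, 7.98 and 9.12 in B cells and 4.26, 3.78, 3.85 and 4.02 in cDC1. B cells thus had more invariant chain UMIs for each H2-Ab1 UMI than cDC1 in all 4 libraries.

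**Figure D2:**
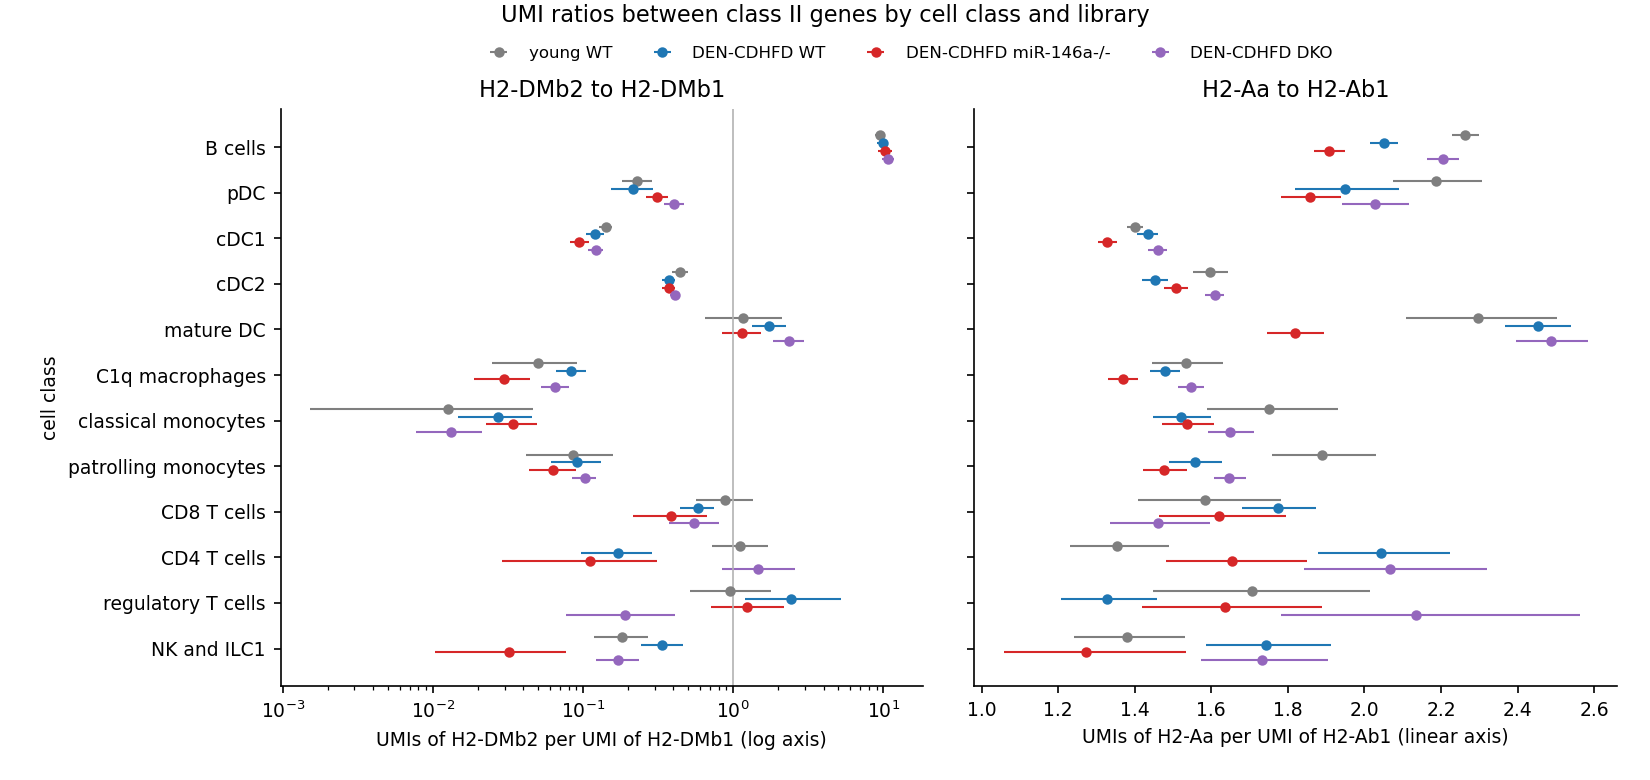
UMIs of H2-DMb2 per UMI of H2-DMb1 (log axis) and of H2-Aa per UMI of H2-Ab1 (linear axis) by class, with colours for libraries and bars for exact 95% intervals. B cells lie at 9.44 or above for H2-DMb2 to H2-DMb1, and cDC1 at 0.141 or below.

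H2-Oa (ENSMUSG00000024334) and H2-Ob (ENSMUSG00000041538) encode H2-O, which restrains H2-DM. H2-Oa measured 421, 494, 420.2 and 503 CPM in B cells and 408, 367, 329.9 and 373 CPM in cDC2. B cells came first and cDC2 next, with overlapping intervals in young WT only. cDC1 had 223, 158, 169 and 181 CPM, highest in young WT, and pDC 159.7, 123, 184 and 176 CPM, lowest in DEN-CDHFD WT. Classical monocytes had 2.30, 4.13, 4.76 and 1.10 CPM, on 1, 7, 19 and 6 UMIs. H2-Ob was more restricted still, at 659, 647, 691 and 749 CPM in B cells and 214, 161, 200.5 and 172 CPM in cDC1. B cells led in every library, cDC1 and cDC2 overlapped except in miR-146a-/-, where cDC1 was above, and B cells held 64.2, 59.0, 55.5 and 59.1% of the H2-Ob UMIs. pDC had only 9.32, 11.8, 12.2 and 10.1 CPM of H2-Ob beside their clear H2-Oa level, so pDC carried RNA for the α chain of H2-O with little for the β chain. UMIs of H2-Oa per UMI of H2-DMa were 0.851, 0.952, 0.906 and 1.08 in B cells, 0.545, 0.466, 0.427 and 0.470 in cDC2, 0.279, 0.222, 0.223 and 0.234 in cDC1 and 0.0488, 0.0680, 0.0646 and 0.0708 in C1q macrophages. The ratio of H2-Oa to H2-DMa was therefore highest in B cells and lowest in macrophages among these classes in every library. Outside them, classical monocytes were lower still (0.00621, 0.0123, 0.0203 and 0.00387), and mature DC of DKO had 1.12. H2-Ob did not enter this ratio, and H2-O protein was not measured.

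Free RNA can add class II UMIs to any cell, so levels in CD8 T cells, NK and ILC1 cells and neutrophils are given as a background. The 3 chains summed to 135, 449, 132 and 179 CPM in CD8 T cells and 219.7, 279, 106 and 284 CPM in NK and ILC1 cells, at median depths of 8138, 7639, 7051 and 6374 and 6585, 8224, 8688 and 7868 UMIs. CD8 T cells were highest in DEN-CDHFD WT, and neither class is known for class II in mice. In neutrophils H2-Ab1 was at 31.3, 814, 116 and 393 CPM, with only 14, 17, 71 and 75 cells. Cd74 per H2-Ab1 UMI was 6.25, 4.82, 5.37 and 4.31 in CD8 T cells and 4.30, 7.62, 14.0 and 9.0 in NK and ILC1 cells. The ratio differed between these 2 classes in every library, and what it owes to free RNA and to the cells' own Cd74 was not tested. H2-DMa, at 31.9, 28.1, 21.7 and 27.7 CPM in CD8 T cells, was high there relative to H2-Ab1 (ratio 0.933, 0.267, 0.688 and 0.580). In DEN-CDHFD WT, however, this ratio was below that of pDC (0.280). NK and ILC1 cells had 0.701, 0.719, 1.74 and 0.786, above CD8 T cells except in young WT. The summed chain level in classical monocytes was 5675, 5203, 2823 and 2913 CPM, far above that of CD8 T cells in each library.

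The comparison of DEN-CDHFD WT with young WT asked how class II RNA in wild-type liver differs with the DEN-CDHFD course. Age, DEN and diet differ together between these libraries and cannot be told apart. Members were counted as measured with at least 50 CPM and 20 UMIs in either library, and 5 classes with at least 50 cells in both were compared. Of 45 member and class combinations, 0 were past 1.5-fold. Per-cell shares did differ in patrolling monocytes. Those without a chain UMI after thinning to 2000 UMIs were a smaller share in DEN-CDHFD WT, a difference of -27.6 points (-40.2 to -13.4). Those with 10 or more were a larger share, by 22.7 points (9.90 to 33.8). From young WT to DEN-CDHFD WT the C1q list of this class went from 7.58 to 62.4 CPM and the classical monocyte list from 267 to 565 CPM. The B cell list went the other way, from 30.3 to 19.8 CPM. The part of these genes in the shares was not tested.

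Among B cells 0 of 10 measured members were past 1.5-fold, beside 3.17% of all measured genes. pDC had 0 of 8, beside 4.4%, cDC1 0 of 10, beside 4.72%, and cDC2 0 of 10, beside 7.77%. Patrolling monocytes had 0 of 7, beside 14.3% of genes, although this class had the largest share of genes past the fold. Within patrolling monocytes H2-Ab1 came nearest, at 2415 against 1771 CPM, log2 ratio 0.45 (0.35 to 0.55). The summed chains in this class had a log2 ratio of 0.23 (0.18 to 0.27). H2-Oa in cDC1 was lower in DEN-CDHFD WT, with log2 ratio -0.49 (-0.68 to -0.31), still short of 1.5-fold. When cells with any UMI of the limited other lineages were left out, 8 combinations were higher by more than 1.5-fold and 1 lower. The summed chains of patrolling monocytes then reached 0.77. They reached 0.75 with no limit on UMIs of other lineages and 0.64 with means over cells. The patrolling result thus depended on the limits for other lineages and on the weighting of cells.

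The comparison of DEN-CDHFD miR-146a-/- with DEN-CDHFD WT asked whether class II RNA differs with loss of miR-146a, and it shares the DEN-CDHFD WT library with the comparison above. Members had no common direction over the classes. The members past 1.5-fold were higher in pDC and lower in both monocyte classes. C1q macrophages had a count near the share of all genes, and no member was past the fold in B cells, cDC1 and cDC2. Of 60 member and class combinations over 7 classes, 16 were past 1.5-fold, 4 higher and 12 lower. The number higher was 8 with no limit on UMIs of other lineages, 2 with means over cells and 1 with no UMI of other lineages, and the number lower was 8 with at most 4000 features. This sum has no single share of all genes beside it, includes Ciita in patrolling monocytes and H2-DMb2 in C1q macrophages, which reached 50 CPM only in DEN-CDHFD WT, and is read class by class.

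B cells had 0 of 10 members past 1.5-fold (genes at large 7.13%), cDC1 0 of 10 (8.83%) and cDC2 0 of 10 (9.54%). The largest shift among these was Ciita in cDC2, with log2 ratio 0.41 (0.23 to 0.60). In pDC 4 of 8 measured members were past 1.5-fold (8.06% of genes), and all 4 were higher (3.92% of genes higher). H2-Ab1 in pDC was 1974 CPM (1908 to 2041) in miR-146a-/- and 1306 CPM (1233 to 1381) in DEN-CDHFD WT, log2 ratio 0.60 (0.50 to 0.69). H2-Eb1 had 0.62 (0.52 to 0.72), H2-DMb1 0.60 (0.39 to 0.83) and H2-DMb2 1.14 (0.69 to 1.63), the last on 201 and 49 UMIs. Short of the fold were H2-Aa with 0.53 (0.46 to 0.60), H2-Oa with 0.57 (0.26 to 0.89), H2-DMa with 0.40 (0.22 to 0.59) and Cd74 with 0.34 (0.31 to 0.38). With cells of at most 4000 features, H2-Ab1 in pDC went short of the fold, to 0.45, and H2-Eb1 in pDC, to 0.36. TMM scaling also put H2-Ab1 in pDC short of it, at 0.58. With no UMI of other lineages allowed, H2-Ab1 in pDC had 0.30, H2-Eb1 in pDC 0.25 and H2-DMb2 in pDC 0.58, and only H2-DMb1 in pDC, with 0.64, was still past the fold. The member median in pDC was 0.58, and the median over all measured genes was -0.00. The pDC of young WT were like those of DEN-CDHFD WT for H2-Ab1, and DKO were like miR-146a-/-, so the 2 knockout libraries were both on the higher side.

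Patrolling monocytes had 7 of 7 measured members past 1.5-fold, beside 17.6% of genes, and all 7 were lower, beside 9.64% of genes lower. H2-Ab1 there was 735 CPM (713 to 757) in miR-146a-/- and 2415 CPM (2333 to 2499) in DEN-CDHFD WT, log2 ratio -1.72 (-1.78 to -1.65). H2-Aa had -1.79 (-1.85 to -1.74) and H2-Eb1 -1.72 (-1.78 to -1.65). Cd74 was at -1.58 (-1.61 to -1.55), H2-DMa at -1.26 (-1.45 to -1.07) and H2-DMb1 at -1.43 (-1.62 to -1.23). Ciita was at -1.63 (-1.98 to -1.26), with 26.6 against 82.2 CPM, so it entered the count through the library where it was high. The member median was -1.63, beside 0.03 for all measured genes. The summed chains had -1.75 (-1.78 to -1.71), and from -2.40 with means over cells to -1.33 with no limit on UMIs of other lineages.

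Classical monocytes had 4 of 7 members past 1.5-fold, beside 16.3% of genes, and all 4 were lower, beside 9.33%. H2-Ab1 was 818 CPM (791 to 847) against 1551 CPM (1492 to 1611), log2 ratio -0.92 (-1.0 to -0.85). H2-Aa had -0.91 (-0.97 to -0.85), H2-Eb1 -0.79 (-0.87 to -0.71) and Cd74 -0.60 (-0.63 to -0.56). The editors were short of the fold, H2-DMa with -0.52 (-0.67 to -0.36) and H2-DMb1 with -0.52 (-0.68 to -0.36), as was Ciita with -0.36 (-0.74 to 0.03). Classical monocytes therefore had the same direction as patrolling monocytes at a smaller size. The summed chains had -0.88 (-0.92 to -0.84) and went short of the fold, to -0.34, with cells of at most 4000 features and, to -0.52, with no UMI of other lineages allowed. C1q macrophages had 1 of 8 members past 1.5-fold, beside 12.8% of genes, which was H2-DMb2 with log2 ratio -1.46 (-2.20 to -0.80) on 24 and 80 UMIs. H2-DMb2 there was at 19.4 against 54.1 CPM, so it too entered through the higher library, and 1 of 8 is close to the share of all genes. The summed chains in C1q macrophages had a log2 ratio of 0.10 (0.08 to 0.13), and -0.00 with no limits on features or mitochondrial share.

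Class II RNA in the background classes was also lower in miR-146a-/-, with a log2 ratio of -1.77 (-1.84 to -1.71) for the summed chains of CD8 T cells and -1.40 (-1.52 to -1.28) for NK and ILC1 cells. CD8 T cells had 132 CPM in miR-146a-/- and 449 CPM in DEN-CDHFD WT, and patrolling monocytes 2619 and 8801 CPM. With the NK and ILC1 level subtracted, the summed chains in patrolling monocytes had -1.76, and the part of free RNA in the monocyte result was not tested. In patrolling monocytes the listed cDC genes Flt3 and Zbtb46 also summed to less in miR-146a-/-: 25.8, 33.0, 7.76 and 13.3 CPM, both genes being seen, with Flt3 on top at 18.4 CPM in DEN-CDHFD WT and Zbtb46 at 6.58 CPM in miR-146a-/-. The B cell list, with 2 of its 4 genes seen in DEN-CDHFD WT and 4 in miR-146a-/-, was at 30.3, 19.8, 16.9 and 28.4 CPM, with Cd79b on top. The C1q list, 3 of 3 genes seen and C1qb on top in DEN-CDHFD WT and miR-146a-/-, was at 7.58, 62.4, 17.5 and 56.2 CPM, and the classical monocyte list, 5 of 5 seen and Chil3 on top in the same libraries, at 267, 565, 377 and 286 CPM. The part of these genes in the result was not tested.

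**Figure D3:**
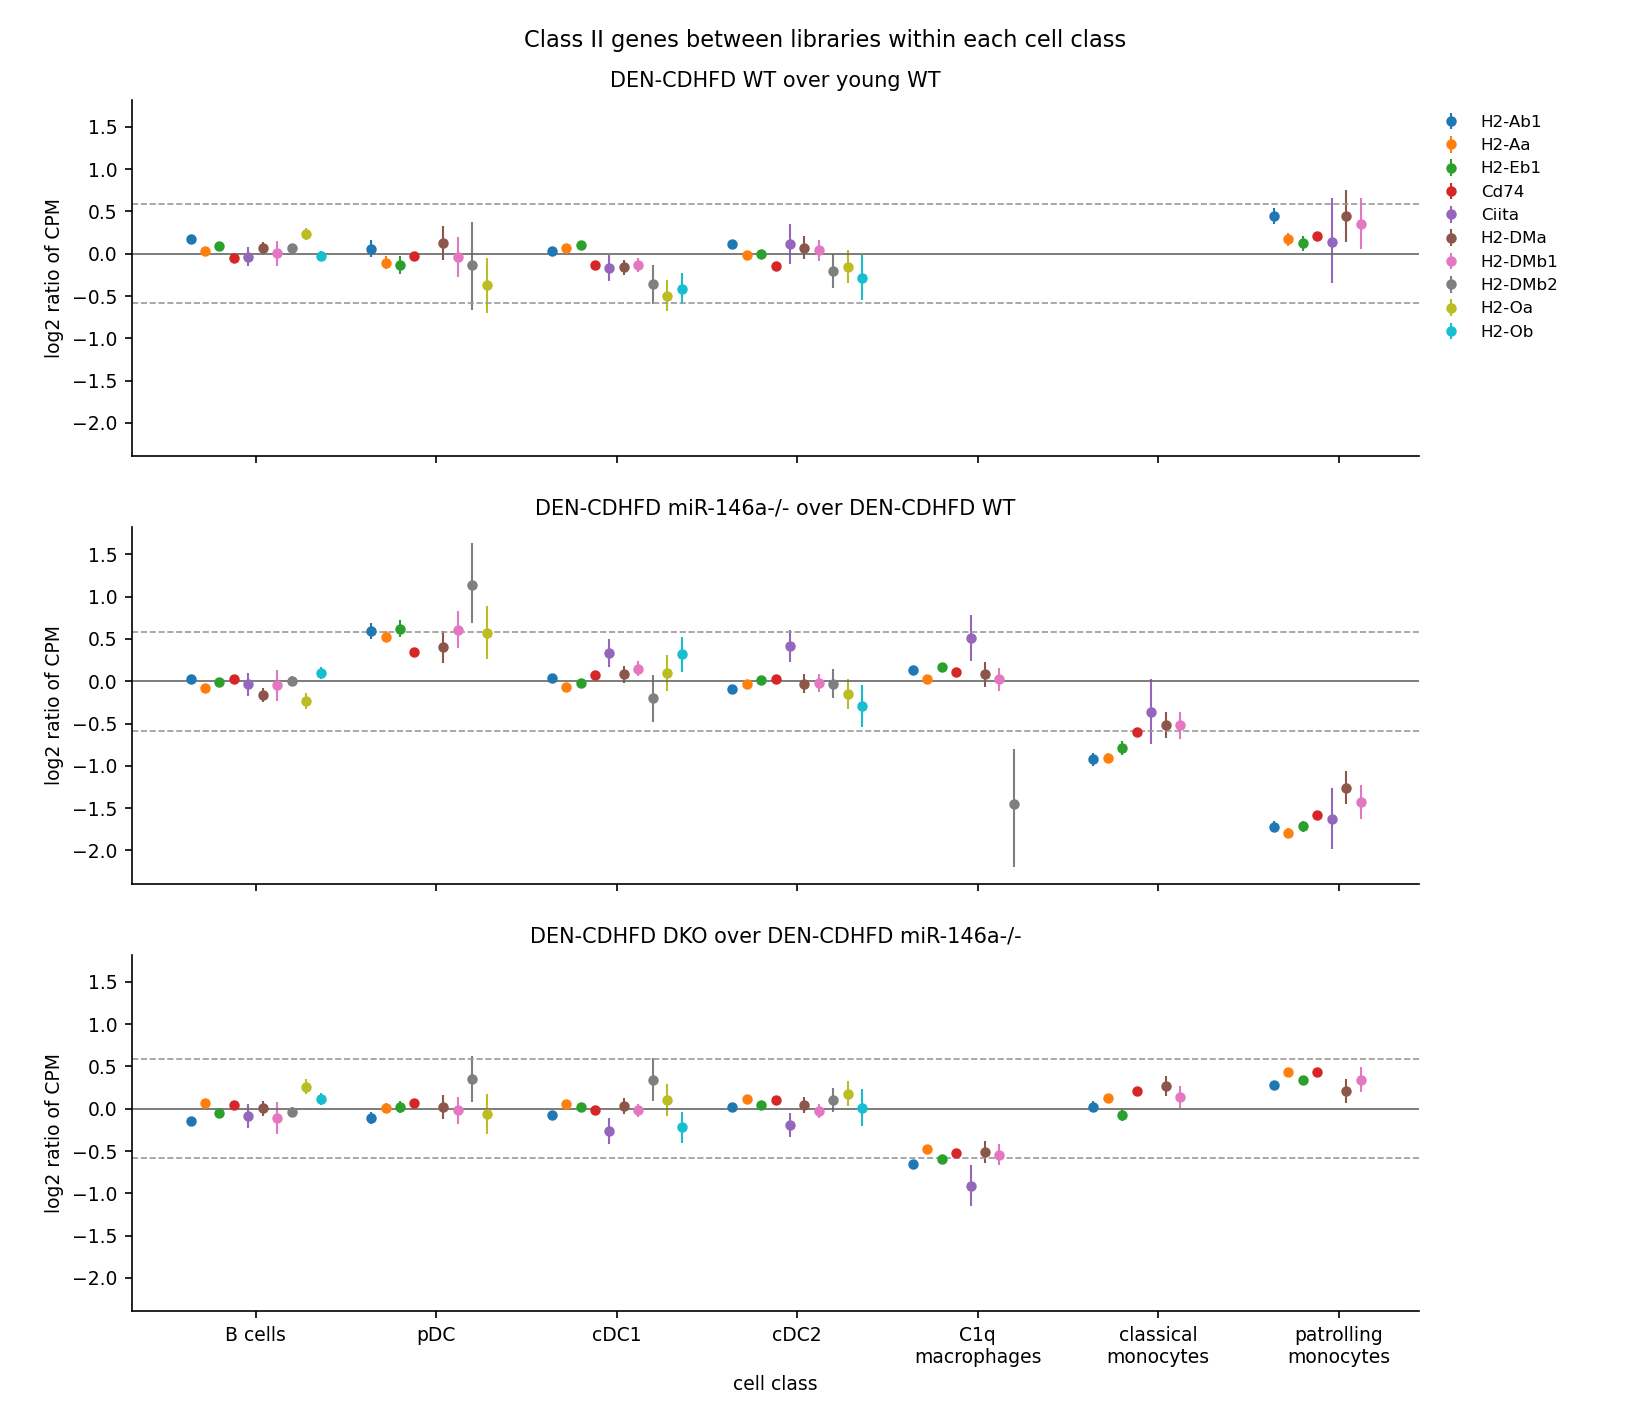
Log2 ratio of CPM for each measured member (colour) by class in the 3 comparisons, with bars for 95% intervals and dashed lines at 1.5-fold. In miR-146a-/- over DEN-CDHFD WT the patrolling monocyte members lie from -1.79 to -1.26 and those of pDC from 0.34 to 1.14, leaving out Ciita and H2-Ob, which were not measured in pDC.

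Per-cell counts showed whether monocytes shared a low chain level or divided. UMIs of H2-Ab1, H2-Aa and H2-Eb1 were summed in cells thinned to 2000 UMIs, and cells were grouped as 0, 1 to 9 and 10 or more. Patrolling monocytes without a chain UMI made up 62.8, 35.2, 75.6 and 71.9% of 78, 122, 647 and 1308 thinned cells, and 1, 1, 8 and 17 shallower cells were left out. DEN-CDHFD WT was lowest, and miR-146a-/- and DKO were highest. The share in miR-146a-/- was above that of DEN-CDHFD WT by 40.3 points (30.9 to 48.8). Patrolling monocytes with 10 or more made up 16.7, 39.3, 6.80 and 9.17%, a difference of -32.5 points (-41.6 to -24.0) for the same libraries. Near the cuts lay 8, 12, 59 and 131 patrolling cells with exactly 1 chain UMI and 2, 6, 6 and 28 with 8 to 11.

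Classical monocytes without a chain UMI made up 45.2, 44, 57.1 and 43.6% of 31, 125, 210 and 289 cells, with no shallower cell. The miR-146a-/- library was highest, above DEN-CDHFD WT by 13.1 points (2.08 to 23.8). At the other end, 25.8, 34.4, 15.7 and 19.0% of classical monocytes had 10 or more, a difference of -18.7 points (-28.4 to -9.16) for miR-146a-/- over DEN-CDHFD WT. Cells with exactly 1 chain UMI numbered 3, 8, 21 and 41, and those with 8 to 11 0, 7, 10 and 21. Before thinning, 67.7, 73.6, 60 and 75.4% of classical and 58.2, 75.6, 39.7 and 41.7% of patrolling monocytes had a chain UMI, at median depths of 12957, 13054, 19113 and 18431 and 7185, 10420, 7052 and 5978 UMIs. CD8 T cells gave a background share, with 29.5, 38.1, 17.8 and 23.0% positive before thinning and 90.5, 86.2, 93.6 and 91.5% without a chain UMI after it. NK and ILC1 cells without a chain UMI made up 88.9, 83.0, 85.6 and 84.1% and neutrophils 78.6, 42.9, 88.6 and 76.1%, the neutrophils on 14, 14, 70 and 71 cells. A cell with 1 chain UMI can therefore not be told from a cell with free RNA. The top 10% of patrolling monocytes held 81.7, 53.8, 95.7 and 92.9% of that class's chain UMIs and the top 10% of B cells 21.2, 22.4, 23.4 and 22.3%. The same share was 65.5, 47.9, 72.2 and 60.9% in classical monocytes, 84.2, 92.1, 92.8 and 90.7% in CD8 T cells, 87.3, 83.0, 67.7 and 87.2% in NK and ILC1 cells and 90.9, 72.8, 96.4 and 90.7% in neutrophils. These shares use UMIs without thinning, and concentration in few cells was not particular to patrolling monocytes.

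**Figure D4:**
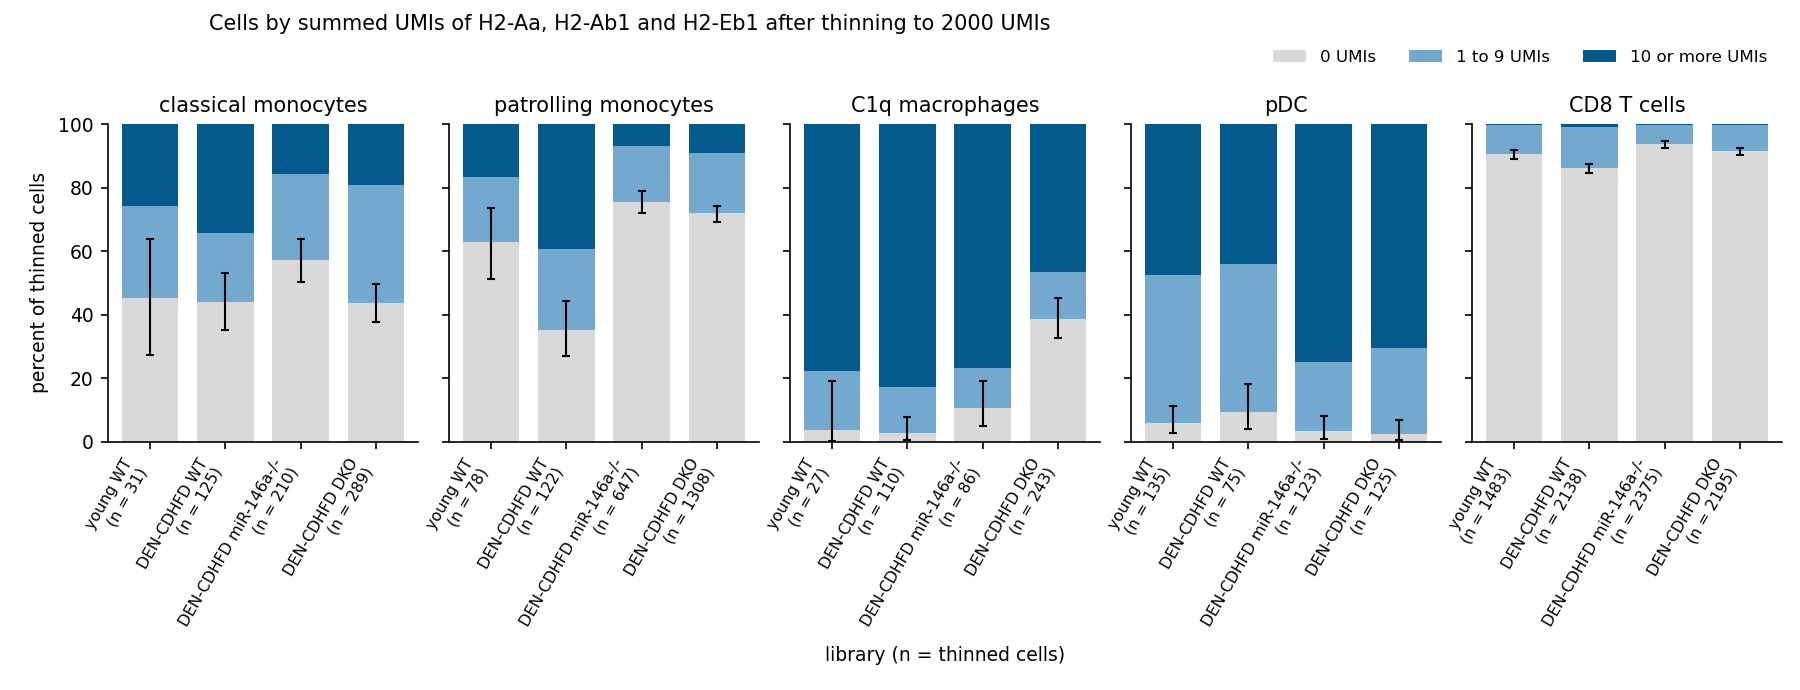
Percent of cells with 0, 1 to 9 and 10 or more summed chain UMIs after thinning to 2000 UMIs in 5 classes, by library, with bars for 95% intervals of the share at 0. Patrolling monocytes without a chain UMI are at 35.2% in DEN-CDHFD WT and 75.6% in miR-146a-/-.

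Cd74, Ciita, H2-DMa and H2-DMb1 were followed over cells ordered by their chain UMIs. Classical monocytes of miR-146a-/- with 0, 1 to 9 and 10 or more chain UMIs (120, 57 and 33 cells, median depths 19246, 18524 and 20501 UMIs) had 560.5, 4196 and 23105 CPM of Cd74. Ciita in these ranges was 3.43, 57.6 and 161 CPM and H2-DMb1 61.3, 206 and 803 CPM, with median H2-DMb1 UMIs of 1, 3 and 14 per cell. Chains, invariant chain, transactivator and editor were thus high in the same monocytes. Ly6c2 ran the other way, at 1165, 984 and 728 CPM with medians of 16, 10 and 5 UMIs. In DEN-CDHFD WT classical monocytes (55, 27 and 43 cells) H2-DMb1 was 62.2, 270.2 and 578 CPM and in DKO (126, 108 and 55 cells) 53.3, 214 and 708 CPM, the same direction as in miR-146a-/-.

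Patrolling monocytes of miR-146a-/- in the same ranges (489, 114 and 44 cells) had 432, 3330.1 and 22435 CPM of Cd74, 2.96, 26.2 and 162 CPM of Ciita and 21.0, 83.0 and 519.9 CPM of H2-DMb1. Median depths were 6654, 7202 and 14546 UMIs, so the cells with 10 or more chain UMIs were deeper before thinning. Flt3 was at 0, 0 and 9.78 CPM there and at 0, 5.84 and 41.2 CPM in the ranges of DEN-CDHFD WT (43, 31 and 48 cells). Its median was 0 in every range of both libraries. These are ranges of a count and not cell types, and doublets with a class II cell can enter the range of 10 or more. Leaving out every monocyte with a UMI of Flt3 or Zbtb46, a choice made after seeing the data, gave -1.58 in place of -1.75 for the summed chains of patrolling monocytes. For classical monocytes the same choice went the other way, with -1.34 in place of -0.88.

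**Figure D5:**
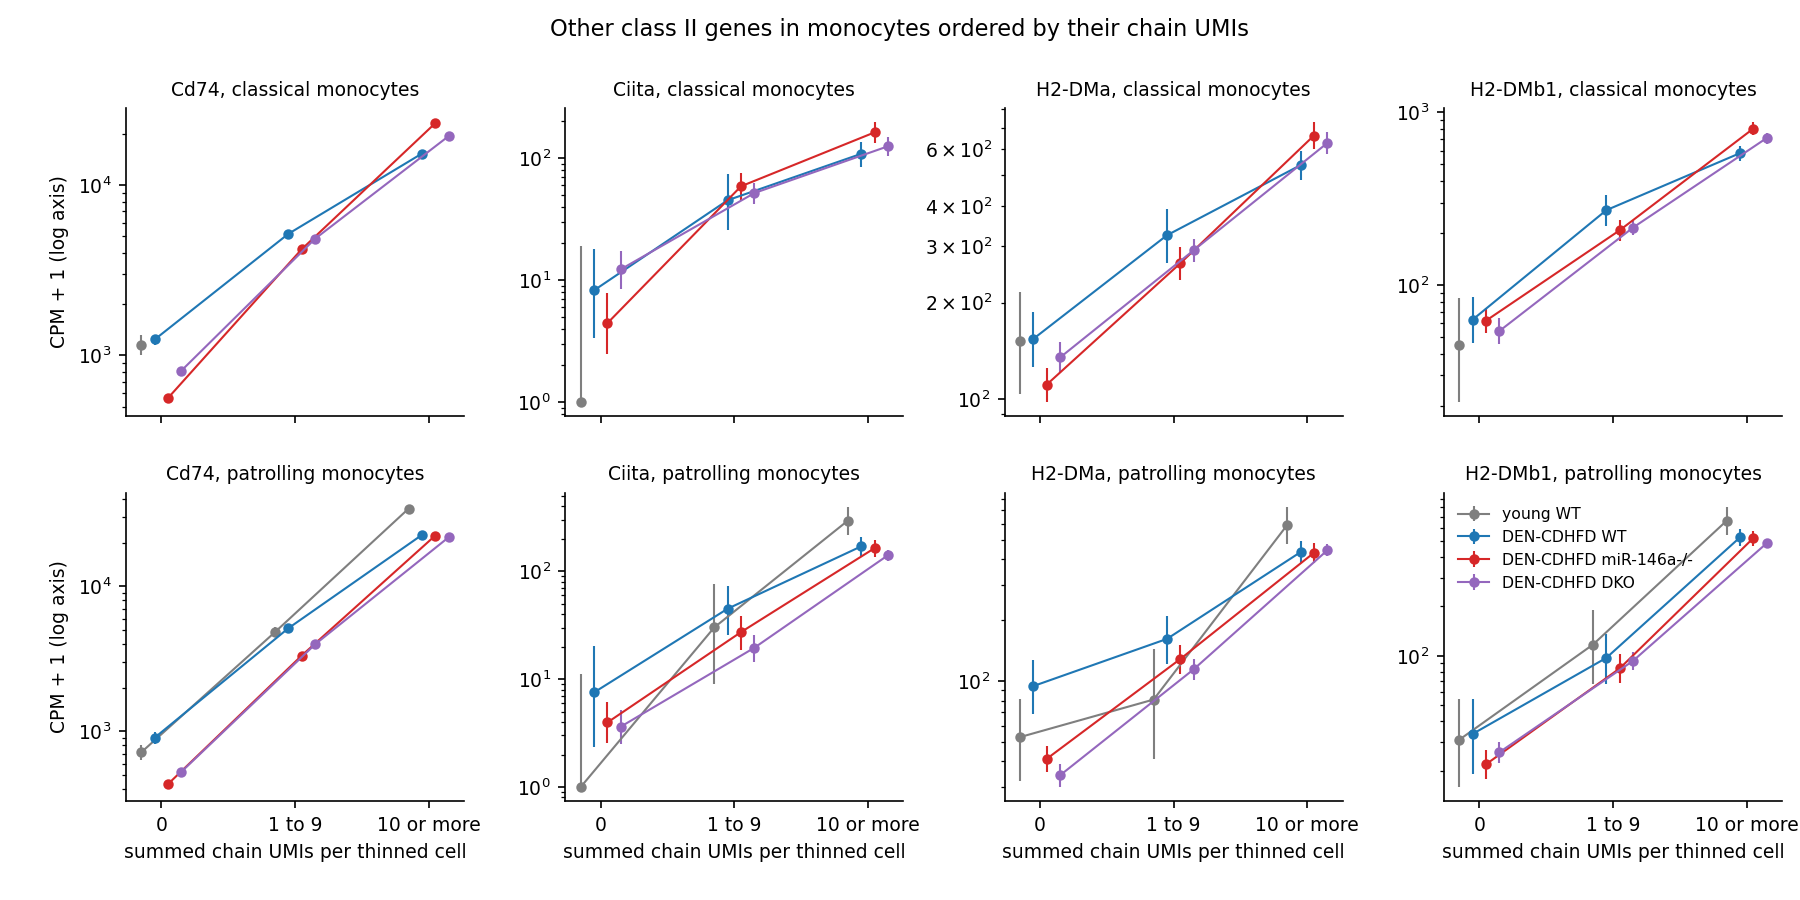
Cd74, Ciita, H2-DMa and H2-DMb1 (CPM + 1, log axis) in classical and patrolling monocytes with 0, 1 to 9 or 10 or more chain UMIs per thinned cell, by library, with bars for 95% intervals. Cd74 in miR-146a-/- classical monocytes runs from 560.5 to 23105 CPM.

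The comparison of DKO with miR-146a-/- asked whether class II RNA differs when Ccl5 is also lost, and it shares the miR-146a-/- library with the comparison above. The median of the measured members was lower in C1q macrophages, at -0.54 beside 0.04 for all measured genes, and higher in patrolling monocytes, at 0.34 beside 0.01. Of 57 combinations over 7 classes, 3 were past 1.5-fold, all lower and all in C1q macrophages. This count became 12, 4 of them higher, with at most 4000 features and 7, all lower, with means over cells. With Flt3 or Zbtb46 cells left out the count stayed at 3, but 1 was higher and 2 lower. It is read class by class, since no single share of all genes stands beside it.

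B cells had 0 of 10 members past 1.5-fold (2.78% of genes), pDC 0 of 8 (2.55%), cDC1 0 of 10 (2.29%) and cDC2 0 of 10 (1.91%). Classical monocytes had 0 of 6 (1.41%) and patrolling monocytes 0 of 6 (1.69%). In C1q macrophages 3 of 7 measured members were past 1.5-fold (7.36% of genes), all lower (2.94% of genes lower). These were H2-Ab1 at 4190.4 against 6587 CPM, log2 ratio -0.65 (-0.69 to -0.61), H2-Eb1 with -0.59 (-0.63 to -0.56) and Ciita with -0.91 (-1.15 to -0.67). H2-Aa had -0.48 (-0.51 to -0.44), Cd74 -0.52 (-0.54 to -0.50), H2-DMa -0.51 (-0.64 to -0.38) and H2-DMb1 -0.54 (-0.67 to -0.42), all lower and short of the fold. H2-Eb1 went short of it too, to -0.58, with TMM scaling. H2-DMb2, too low to count as measured, was at 29.3 against 19.4 CPM. In patrolling monocytes the summed chains had a log2 ratio of 0.36 (0.34 to 0.39), and in classical monocytes 0.05 (0.01 to 0.08). Classical monocytes without a chain UMI were a lower share in DKO, by a difference of -13.5 points (-22.1 to -4.66), and of -7.71 points (-16.2 to 1.06) with thinning to 1000 UMIs. The summed chains in classical monocytes became -0.05 with the NK and ILC1 level subtracted and 0.50 with Flt3 or Zbtb46 cells left out. The patrolling value became 0.20 with no UMI of other lineages, 0.22 with Flt3 or Zbtb46 cells left out and 0.57 with at most 4000 features. Patrolling monocytes without a chain UMI differed by -3.71 points (-7.74 to 0.48). From miR-146a-/- to DKO their C1q list went from 17.5 to 56.2 CPM and their B cell list from 16.9 to 28.4 CPM. Flt3 and Zbtb46 went from 7.76 to 13.3 CPM, whereas the classical monocyte list went from 377 to 286 CPM. The part of these genes in the patrolling value was not tested.

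C1q macrophages without a chain UMI made up 3.70, 2.73, 10.5 and 38.7% of 27, 110, 86 and 243 thinned cells, with 2, 4, 4 and 8 shallower cells left out. DKO was the high library, above miR-146a-/- by 28.2 points (18.1 to 36.1), and by 8.14 points (-2.29 to 16.8) with cells carrying a Negr1 UMI left out. Before thinning, 100, 99.1, 90 and 70.9% had a chain UMI. Exactly 1 chain UMI was seen in 0, 2, 0 and 16 cells and 8 to 11 in 2, 9, 2 and 9. The DKO cells without a chain UMI (94 cells) had 1865 CPM of Fcgr4 and 852 CPM of Negr1, and those with 10 or more (113 cells) had 229 and 44.7 CPM. Fcgr4 over all DKO patrolling monocytes was at 554 CPM. The listed patrolling genes, 5 of 5 seen and Adgre4 on top, summed to 525, 451, 619 and 931 CPM in C1q macrophages. In miR-146a-/- and DKO the Kupffer cell list (3 and 5 of 5 genes seen, Cd5l on top) was at 16.2 and 90.7 CPM, the B cell list (2 of 4 seen, Cd79b on top) at 24.3 and 44.2 CPM and the classical monocyte list (5 of 5 seen, Ccr2 on top) at 955 and 691 CPM. The part of these lists in the result was not tested, and Fcgr4 and Negr1 were chosen after their values were seen. Leaving out Negr1 cells took 104 of 251 C1q macrophages (41.4%) in DKO and 13 of 90 (14.4%) in miR-146a-/-. With these left out, a choice made after seeing the data, the summed chains had -0.28 in place of -0.56 and 1 combination in place of 3 was past 1.5-fold. The summed chains went past the fold, to -0.93, with cells of at most 4000 features and, to -0.83, with means over cells, and no combination was past it when UMIs of other lineages were not limited.

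Of 39 listed pathway genes around the members, such as regulators, lysosomal enzymes and costimulatory genes, 38 had a row. In miR-146a-/- over DEN-CDHFD WT, 10 of 22 measured in classical monocytes were past 1.5-fold, 9 lower and 1 higher, beside 16.3% of all measured genes. In patrolling monocytes 8 of 22 were, all lower, beside 17.6%. Irf1, an interferon regulatory factor, was lower in both, in patrolling monocytes at 72.5 against 178 CPM, log2 ratio -1.29. Cd83, known to hold class II at the surface, was at 42.2 against 347 CPM, log2 ratio -3.04 in patrolling monocytes and at 16.3 against 218 CPM, log2 ratio -3.74 in classical monocytes. Ifi30, a reductase acting on antigens, was at 478 against 781 CPM, log2 ratio -0.71 in patrolling monocytes. Cd83 reached 50 CPM only in DEN-CDHFD WT in both monocyte classes, so it entered the counts through the higher library. In pDC 1 of 20 pathway genes was past 1.5-fold, beside 8.06% of genes; this was Irf1, at 231 against 470.4 CPM, log2 ratio -1.03, which was lower. B cells had 4 of 25, all lower (7.13% of genes), cDC1 3 of 19, all lower (8.83%), cDC2 4 of 23, 3 of them lower (9.54%), and C1q macrophages 5 of 24, all lower (12.8%). Shares of genes beside pathway counts, here and below, cover both directions. Lower alone were 9.33% of genes in classical and 9.64% in patrolling monocytes. In B cells 120 of 3351 genes were lower, in cDC1 212 of 3217, in cDC2 173 of 3384 and in C1q macrophages 294 of 3404. Cd83 in B cells was at 564 against 1029.5 CPM, log2 ratio -0.87, although no member was past the fold there.

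In DEN-CDHFD WT over young WT the pathway counts were 0 of 25 in B cells beside 3.17% of genes, 0 of 19 in pDC beside 4.4%, 1 of 19 in cDC1 (higher) beside 4.72%, 4 of 22 in cDC2 (3 higher) beside 7.77% and 5 of 22 in patrolling monocytes (5 higher) beside 14.3%. In DKO over miR-146a-/- they were 0 of 25 in B cells beside 2.78%, 2 of 21 in pDC (higher) beside 2.55%, 1 of 18 in cDC1 (higher) beside 2.29% and 0 of 22 in cDC2 beside 1.91%. C1q macrophages had 3 of 22 (lower) beside 7.36%, classical monocytes 0 of 21 beside 1.41% and patrolling monocytes 1 of 21 (higher) beside 1.69%. March1, whose product removes class II from the surface, was at 14.7, 6.22, 8.29 and 7.39 CPM in mature DC and 195, 145, 216 and 179.8 CPM in cDC1. H2-Eb2, a class II β gene outside the members, was at 174, 178, 133 and 176 CPM in B cells and 378, 398, 259 and 458 CPM in mature DC.

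Over 44 class and library profiles and 6526 genes, the genes most like the summed chains were compared by the correlation of log2(CPM + 10). Among members outside the sum, Cd74 had r of 0.989, Ciita 0.961, H2-DMa 0.941 and H2-DMb1 0.913, while H2-DMb2 and H2-Oa had 0.766 and H2-Ob 0.704. Cd74 and Ciita tracked the chains most closely, and the genes led by B cells tracked them least. Members and the lineage genes of the gates were left out of the ranking of other genes. The 10 nearest of the rest were Plekho1 (0.958), Ifi30 (0.921), Fgd2 (0.909), Erp29 (0.889), Ly86 (0.883), Irf5 (0.874), Cd2ap (0.873), Id3 (0.867), Wdfy4 (0.866) and Prcp (0.865). Of these, 7 were also among the 10 nearest with log2(CPM + 1). Profiles of the same library are not independent, so r ranks likeness only.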

How the data were processed

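Single-cell 5' RNA was measured in CD45+ liver cells of 4 libraries, 1 for each group, and the values are the UMI counts per gene and cell that the authors deposited, made with Cell Ranger 7.0.1 on mm10 per the submitters' processing notes. Cells entered when they had no fewer than 600 and no more than 6000 features and a mitochondrial share of UMIs up to 5%. A class needed at least 10, 5 or 3 UMIs of its own marker list, and plasma cells needed more. Each class also had a limit of 2 UMIs on several of the T, B, NK, pDC and neutrophil lists and on Csf1r with Lyz2. No class had a limit on the cDC genes Flt3 and Zbtb46, and monocytes had no such limit on C1q genes. The alternatives on UMIs of other lineages changed these same limits only. The marker list was used in part, without Eomes, Tbx21, Spn, Pglyrp1, Cadm1 and Tlr3, and cells fitting several lineages or no gate were kept apart as mixed or unassigned. Members and marker lists were chosen with earlier results of these data known.

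UMIs were summed over the cells of a class and library and scaled to CPM by all UMIs of that class and library. Intervals are exact 95% Poisson or Clopper-Pearson intervals, and Newcombe intervals for differences of shares, for counting error only. Those computed from UMIs carry no variation between cells. Log2 ratios used a prior of 0.5 UMIs. Classes with at least 50 cells in both libraries were compared, and a gene counted as measured with at least 50 CPM and 20 UMIs in either library. The same count over all measured genes stands beside the count of members past 1.5-fold in each class. With 1 library per group, no test was run. Shares of cells used cells thinned to 2000 UMIs with random seed 1. The members were all named. Other genes were named from the pathway and marker lists or as the 10 nearest in likeness outside the members and gate genes. Fcgr4 and Negr1 were named after their values were seen. The values of 1 listed pathway gene are not reported here.

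Python 3.11.15, numpy 2.4.6, scipy 1.17.1, pandas 2.3.3, biopython 1.88, matplotlib 3.10.9, R 4.3.3 and edgeR 4.0.16 were used, and the scripts were tested on simulated data. Alternatives were other limits on features, mitochondrial share and UMIs of other lineages, TMM scaling, means over cells, a prior of 5 UMIs, subtraction of the NK and ILC1 level, a fold of 2, a minimum of 10 CPM, thinning to 1000 UMIs or none, 3 UMIs for a positive cell, and log2(CPM + 1) for likeness. Leaving out cells with a UMI of Negr1, leaving out monocytes and C1q macrophages with a UMI of Flt3 or Zbtb46, and the ratio of H2-DMa to H2-Ab1 were added after seeing the data. Promoter windows were those of RefSeq start sites on GRCm38.p6.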

Additional observations from a re-analysis of the deposited data

Results flagged for a closer look

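Some members had opposite directions in different classes when miR-146a-/- was compared with DEN-CDHFD WT. H2-Ab1 had a log2 ratio of 0.60 in pDC, -0.92 in classical monocytes and -1.72 in patrolling monocytes. H2-Eb1 had 0.62 in pDC, -0.79 in classical monocytes and -1.72 in patrolling monocytes. For H2-DMb1 the values were 0.60 in pDC and -1.43 in patrolling monocytes. H2-DMb2 had 1.14 in pDC and -1.46 in C1q macrophages. The C1q value rests on 24 and 80 UMIs and entered only because DEN-CDHFD WT reached 50 CPM, so it is listed without being read as an opposite direction. Each value comes from 1 library per group, so the difference between the classes was not tested. In pDC, H2-Ab1 and H2-Eb1 went short of 1.5-fold with at most 4000 features or with no UMI of other lineages. H2-Ab1 in pDC also did so with TMM scaling, and H2-DMb2 in pDC with no UMI of other lineages. With means over cells, 2 combinations over all classes were higher, in place of the 4 in pDC. The summed chains of classical monocytes went short of the fold with at most 4000 features (-0.34) and with no UMI of other lineages (-0.52).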

How the results depend on the processing

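Over 10 alternatives, 1770 log2 ratios of members and summed chains were recomputed and counted. The main summed-chain ratios are not among them. These are pDC, classical and patrolling monocytes in miR-146a-/- over DEN-CDHFD WT and C1q macrophages in DKO over miR-146a-/-. They are given further below, and all but that of patrolling monocytes changed their side of the fold under some alternatives. Of the 1770, 0 that were past 1.5-fold turned their direction, 1688 kept their side of the fold, and 1300 stayed within the main counting interval. Counting ratios of any size, 1626 of the 1770 kept their sign. TMM scaling shifted log2 ratios by -0.05 to 0.09, and 175 of 177 kept their side; H2-Ab1 in pDC (0.58, miR-146a-/- over DEN-CDHFD WT) and H2-Eb1 in C1q macrophages (-0.58, DKO over miR-146a-/-) went short of the fold. The share of classical monocytes without a chain UMI stayed higher in miR-146a-/- than in DEN-CDHFD WT under the 8 alternatives run for it. The alternative of at most 4000 features was not run for shares of cells. Under those 8 the difference was 6.41 to 22.7 points. With no UMI of other lineages the interval of that difference reached below 0.

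Of the 1770 ratios, 470 left the main counting interval. The main counts, ratios and shares that left their interval or count range are given next, and for each the cause was not tested. The main count of members past 1.5-fold in DEN-CDHFD WT over young WT was 0. It became 1 (lower) with no limits on features or mitochondria, 3 (2 higher) with at most 4000 features, 9 (8 higher) with no UMI of other lineages, 6 (6 higher) with no limit on other lineages, 5 (5 higher) with means over cells and 1 (higher) with Flt3 or Zbtb46 cells left out. In miR-146a-/- over DEN-CDHFD WT the count of 16 became 10 (9 lower) with no UMI of other lineages and 9 (8 lower) with a fold of 2. Its split was 8 higher and 11 lower with no limit on other lineages, 2 and 10 with means over cells, and 5 and 8 with at most 4000 features. In DKO over miR-146a-/- the count of 3 became 1 with no limits on features or mitochondria, 12 (8 lower) with at most 4000 features, 0 with no limit on other lineages, 7 (7 lower) with means over cells, 1 with Negr1 cells left out, 0 with a fold of 2 and 6 (4 lower) with a minimum of 10 CPM. Its split was 1 higher and 2 lower with Flt3 or Zbtb46 cells left out.

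For summed chains in miR-146a-/- over DEN-CDHFD WT, pDC had 0.57, which became 0.40 with at most 4000 features, 0.30 with no UMI of other lineages, 0.51 with means over cells and 0.63 with the NK and ILC1 level subtracted. Classical monocytes had -0.88, which became -0.98 with no limits on features or mitochondria, -0.34 with at most 4000 features, -0.52 with no UMI of other lineages, -1.05 with no limit on other lineages, -0.68 with means over cells, -0.84 with Negr1 cells left out and -1.34 with Flt3 or Zbtb46 cells left out. Patrolling monocytes had -1.75, which became -1.79, -2.37, -1.33, -2.40 and -1.58 with no limits on features or mitochondria, at most 4000 features, no limit on other lineages, means over cells, and Flt3 or Zbtb46 cells left out. C1q macrophages in DKO over miR-146a-/- had -0.56, which became -0.46, -0.93, -0.30, -0.83, -0.28 and -0.51 with no limits on features or mitochondria, at most 4000 features, no limit on other lineages, means over cells, Negr1 cells left out, and Flt3 or Zbtb46 cells left out. Summed chains in patrolling monocytes in DKO over miR-146a-/- had 0.36, which became 0.57 with at most 4000 features, 0.20 with no UMI of other lineages, 0.25 with no limit on other lineages, 0.29 with means over cells, 0.30 with the NK and ILC1 level subtracted, 0.50 with Negr1 cells left out and 0.22 with Flt3 or Zbtb46 cells left out. In DEN-CDHFD WT over young WT they had 0.23, which became 0.28 with no limits on features or mitochondria, 0.43 with at most 4000 features, 0.77 with no UMI of other lineages, 0.75 with no limit on other lineages, 0.29 with TMM scaling, 0.64 with means over cells and 0.36 with Flt3 or Zbtb46 cells left out. The share of C1q macrophages without a chain UMI in DKO over miR-146a-/- went from 28.2 to 8.14 points (-2.29 to 16.8) with Negr1 cells left out. The Negr1 alternative and that of Flt3 and Zbtb46 were chosen after seeing the data.

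Depth and cell number limit the smaller classes. Young WT gave 31 classical monocytes and 29 C1q macrophages, too few to compare. In cells thinned to 2000 UMIs, a member at a low level is often missed, so a cell without a chain UMI may still carry chain RNA. With 1 library per group, differences between mice, sorting days and libraries could not be separated from genotype or treatment.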
